A study of Mus musculus with 21 samples.

Results

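Interferon-stimulated genes with antiviral roles were followed in mouse lung after 1 dose of a fungal allergen extract. The set was a list of 39 gene names, and a gene entered with its brightest probe set among those the platform annotation assigns to that symbol and no other. Of the 39, 35 were measured, out of 12393 genes tested on the arrays. Isg15 lay on a probe set shared with another gene and was left out, and Herc6, Ifi44 and Xaf1 were not analysed here. Female BALB/c mice, 8 weeks old and given no other agent, received 50 µl by intratracheal aspiration, and the RNA of the whole left lung was hybridised to expression arrays, 21 in all. Metarhizium anisopliae crude antigen (MACA, from a soil fungus that infects insects) was given at 20 µg in Hank's balanced salt solution (HBSS) to 4 mice sampled at 3 h and 3 at 12 h. Bovine serum albumin (BSA), the protein of low allergenicity, was given at 20 µg in HBSS to 3 mice at 3 h and 4 at 12 h, and HBSS alone to 3 mice at 3 h and 4 at 12 h. A crude extract is a mixture, and its components were not given separately.

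Type I and type III interferons signal through Janus kinases to a complex that includes STAT2 and IRF9 and binds a DNA element called the interferon-stimulated response element. Interferon gamma acts through a different element, the gamma-activated site. The genes switched on include proteins that sense foreign RNA, degrade it, block its translation or hold viruses at membranes, and some of them, such as Irf7, strengthen the next round of interferon production. In the lung, epithelial cells, macrophages and infiltrating leukocytes can all express these genes.

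The upstream 250 bases of 4 genes are printed because they carry either element close to a start site and belong to genes whose levels on each array are given further on; Bst2 lies outside the rule for genes described in full and was chosen after its values were seen. They are RefSeq sequences of build GRCm38.p6, 5′ to 3′ on the gene's strand and ending just before an annotated start site. Capitals mark the core of the response element (GAAA, any 2 bases, GAAA, or its reverse complement) in Ifit1, Oas3 and Bst2, and that of the gamma-activated site (TTCNNNGAA) in Irf1.
Ifit1 (chr19:34640639-34640888, + strand): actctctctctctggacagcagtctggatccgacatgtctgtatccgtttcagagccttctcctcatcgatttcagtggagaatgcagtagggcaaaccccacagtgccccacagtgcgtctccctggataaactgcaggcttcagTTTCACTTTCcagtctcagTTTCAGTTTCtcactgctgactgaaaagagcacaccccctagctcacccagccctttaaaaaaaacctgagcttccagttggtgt
Oas3 (chr5:120777660-120777909, - strand): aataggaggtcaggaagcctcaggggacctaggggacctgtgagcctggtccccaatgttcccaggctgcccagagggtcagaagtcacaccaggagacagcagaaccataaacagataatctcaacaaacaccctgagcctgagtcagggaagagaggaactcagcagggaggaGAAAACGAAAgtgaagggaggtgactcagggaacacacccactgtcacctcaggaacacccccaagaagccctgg
Bst2 (chr8:71537473-71537722, - strand): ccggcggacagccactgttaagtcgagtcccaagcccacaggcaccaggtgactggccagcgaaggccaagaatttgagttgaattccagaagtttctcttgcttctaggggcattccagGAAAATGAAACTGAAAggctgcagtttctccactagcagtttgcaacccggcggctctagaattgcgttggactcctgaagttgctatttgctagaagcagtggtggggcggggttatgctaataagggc
Irf1 (chr11:53769764-53770013, + strand): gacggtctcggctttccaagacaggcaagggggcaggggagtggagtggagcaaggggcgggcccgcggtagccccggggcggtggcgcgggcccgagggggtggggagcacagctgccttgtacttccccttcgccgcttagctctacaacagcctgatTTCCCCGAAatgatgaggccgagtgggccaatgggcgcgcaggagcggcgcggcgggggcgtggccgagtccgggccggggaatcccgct
Ifit1 held 2 separate response-element matches, starting 104 and 85 bases before the start site. In Bst2 the 2 matches overlapped each other, and a gamma-site match (TTCNNNGAA) overlapped the first of them. Oas3 had 1 match, 75 bases before its start, and Irf1 had a gamma-site match 90 bases before its start and no response-element match in this window.

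Both elements were searched on both strands in windows from 250 bases before to 50 bases after each start, which the RefSeq table held for 26 of the 35 measured genes. It held none for Dhx58, Mx1, Mx2, Oas2, Parp14, Parp9, Rtp4, Usp18 and Zbp1. The response-element core was in a window of 11 of the 26 genes (42.3%), against 3.99% of all 27025 genes with a window. The gamma-site core was in 10 of 26 (38.5%), against 9.55% of all genes. The 11 genes with the response-element letters were Bst2, Eif2ak2, Ifih1, Ifit1, Ifit3, Ifitm3, Oas1a, Oas3, Rsad2, Stat2 and Trim30a. These are letter matches and not measured binding sites.

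Levels are log2(intensity + 16) after quantile normalisation, and a log2 fold is a difference of group means on that scale, so changes of dim genes are understated. Rising or falling means an adjusted p under 0.05 in limma, fitted over all 21 arrays with Benjamini-Hochberg adjustment over all genes. The arrays carried the lung epithelial transcripts Scgb1a1 and Sftpc among their brightest in every group. Levels under 5.83 could not be told from noise (an intensity of 40.9), and 28 of the 35 genes were above it on every array. The others were Oas3 and Mx1 (each above it on 4 arrays), Mx2 (7), Dhx58 (10), Zbp1 (17), Oasl1 (18) and Oas2 (20). By the ratio of the 3′ to the 5′ probe sets of a bacterial BioD control transcript, the arrays fell into 13 with ratios of 1.62 to 1.91 and 8 with 0.939 to 1.22, called the high and low technical sets here. All 4 HBSS arrays at 12 h were in the low set and all 3 MACA arrays at 12 h in the high set, so for this pair set and agent cannot be told apart within a set, and fits with a term for the set are given for the antiviral genes and, added after seeing the data, for the pathway and marker lists. MACA at 3 h and BSA at 12 h had 2 low-set arrays each, and the HBSS and BSA arrays at 3 h were all in the high set.

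Fungal extract against vehicle gave higher antiviral transcripts at both times, with more genes past the threshold at 12 h. At 12 h, 28 of the 35 genes rose over HBSS and none fell, beside 10.1% of all genes higher and 20.2% changed in either direction. The median log2 fold was 0.73 over the 35 genes and 0.00 over all genes. At 3 h, 9 of 35 rose and none fell, beside 4.83% of all genes higher and 8.13% changed in either direction, with medians of 0.28 and -0.03. Before any scaling between arrays the 12 h result was much smaller: 5 genes rose, 7 of the 28 had log2 folds under 0, and the median of all genes stood at -0.57 against 0.06 for the 35. The unscaled median intensity of the HBSS arrays at 12 h was 191 to 287, against 123 to 157 in MACA at 12 h, and scaling sets those medians equal. With a term for the technical set, 18 genes rose at 12 h, 17 of them among the 28, and 9 at 3 h, 8 of them among the first 9: Parp9 (0.36, adjusted p = 0.0549) was lost and Rsad2 (1.21 ± 0.36) passed. The percentages of all genes above belong to the scaled fit without that term, and none is given for the unscaled fit or the fit with the term.

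**Figure D1:**
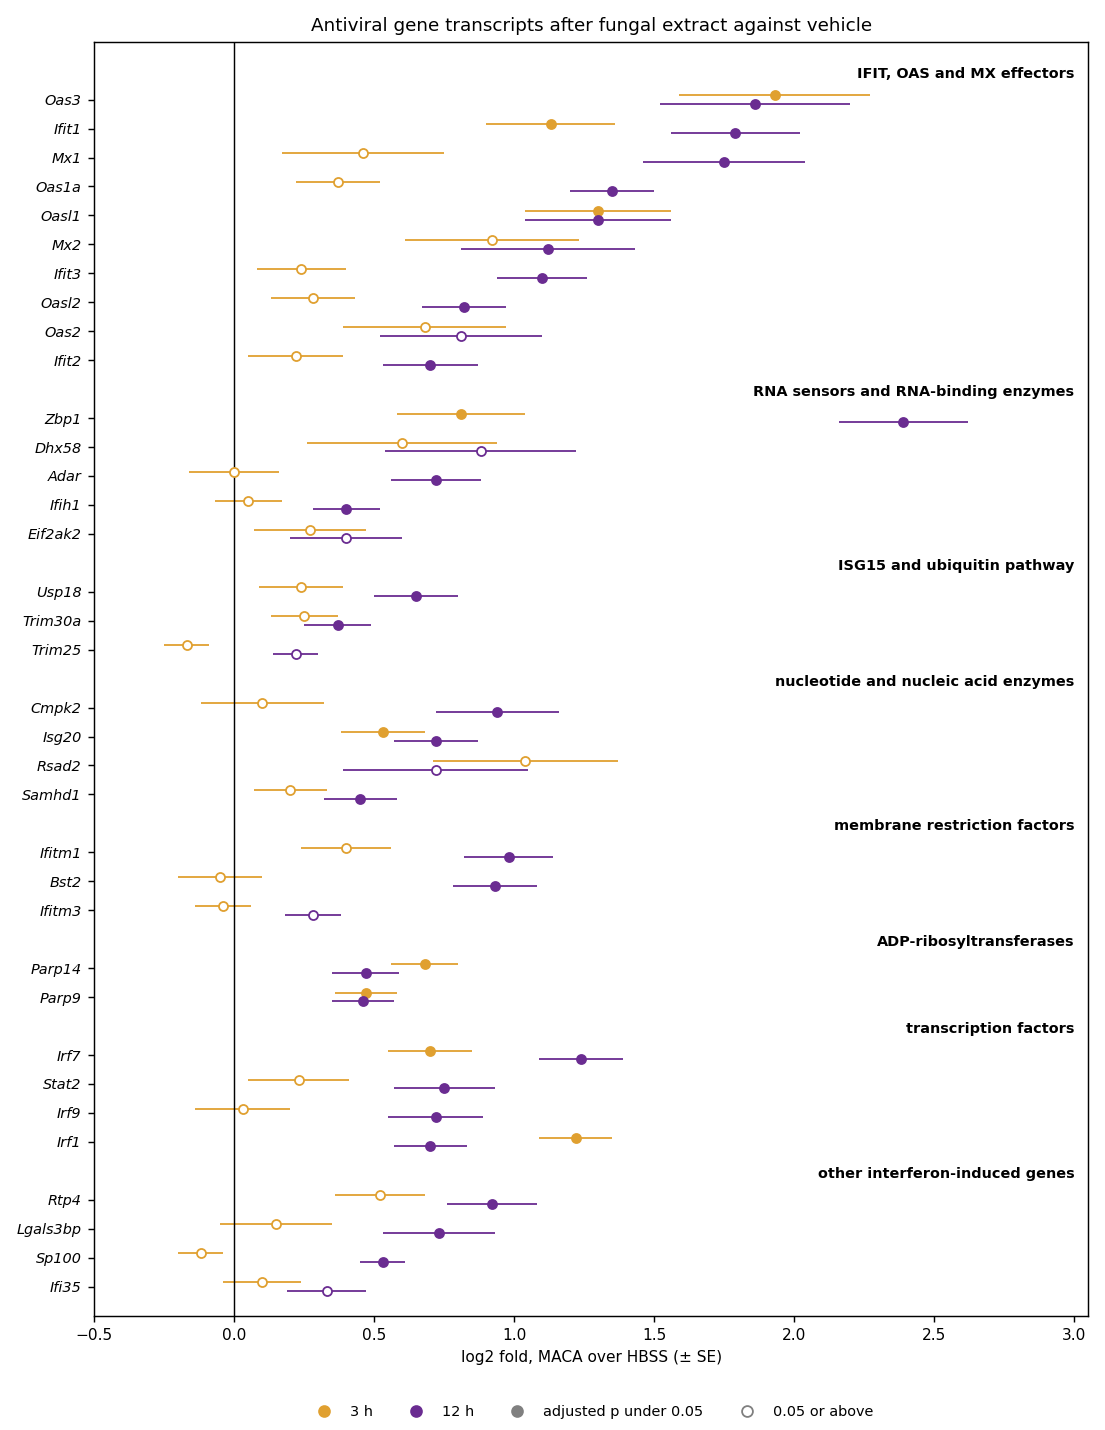
Log2 fold of MACA over HBSS with its standard error for the 35 measured antiviral genes at 3 h and 12 h, grouped by role, filled where limma's adjusted p was under 0.05. After quantile normalisation all 35 points at 12 h lie above 0, with Zbp1 farthest to the right at 2.39 and Trim25 lowest at 0.22; without scaling 7 of the 28 filled ones at 12 h fall below 0.

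Whole left lung was measured, so more RNA per cell and more cells that carry these transcripts cannot be told apart. Groups were fully separated, every MACA array above every HBSS array, for 33 of 35 genes at 12 h (14.9% of all genes were separated in that direction) and for 15 of 35 at 3 h (10.1%). Trim25 and Eif2ak2 were the exceptions at 12 h. The genes that rose at 3 h were Oas3, Oasl1, Irf1, Ifit1, Zbp1, Irf7, Parp14, Isg20 and Parp9, and each of them also rose at 12 h.

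Irf1, a transcription factor that switches on immune genes in response to interferon gamma and inflammatory signals, had the highest log2 fold of the 4 factors at 3 h. At 3 h its levels were 10.63, 10.56 and 10.43 in HBSS, 10.32, 10.52 and 10.58 in BSA, and 11.37, 11.91, 11.75 and 11.99 in MACA. At 12 h they were 10.12, 10.02, 10.18 and 10.26 in HBSS, 10.47, 10.35, 10.77 and 10.57 in BSA, and 10.67, 11.02 and 10.85 in MACA. The 4 MACA arrays at 3 h were the highest of the 21, and at 12 h the MACA arrays stayed above HBSS while the lowest of them lay within the BSA range. The log2 fold over HBSS was 1.22 ± 0.13 (SE) at 3 h (limma adjusted p = 4.74e-05) and 0.70 ± 0.13 at 12 h (adjusted p = 0.00176). Within MACA, Irf1 fell by 0.91 ± 0.13 on the log2 scale between 3 h and 12 h (adjusted p = 0.000421). The BSA ratio narrowed as well, from 1.29 to 0.31, a change of -0.98 ± 0.19 (adjusted p = 0.0362), the 1 of 35 genes to pass that test, beside 0.492% of all genes lower and 0.71% changed in either direction, whereas the change of the HBSS ratio, -0.52 ± 0.19, missed the threshold (adjusted p = 0.128). With the term for the technical set or the replicate block, the change of the BSA ratio missed it too.

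Irf7, the factor that amplifies type I interferon production, rose by 0.56 ± 0.15 on the log2 scale between 3 h and 12 h in the MACA mice (limma adjusted p = 0.0251). That call was lost with the replicate block (adjusted p = 0.0557), within the high set (0.0942), with the 2 groups alone (0.0943), without scaling (0.44) and without MACA replicate 1 at 3 h or replicate 1 or 2 at 12 h (0.0682 to 0.142). Its levels at 3 h were 7.81, 7.64 and 7.39 in HBSS, 7.37, 7.33 and 7.29 in BSA and 8.02, 8.53, 8.35 and 8.35 in MACA. At 12 h HBSS stood at 7.86, 7.53, 7.68 and 7.41, BSA at 8.02, 7.68, 8.27 and 8.05, and MACA at 8.89, 9.08 and 8.64. Every MACA array exceeded every control array of its time. Over HBSS the log2 fold was 0.70 ± 0.15 at 3 h (adjusted p = 0.00956) and 1.24 ± 0.15 at 12 h (adjusted p = 7.74e-05), and 1.44 ± 0.20 at 12 h with the set term. The 3 h call over HBSS was lost without scaling, within the high set, with the 2 groups alone and in at least 1 fit that left out 1 array. The 12 h call over HBSS was lost without scaling. Irf7 was also one of 5 antiviral genes that rose between 3 h and 12 h in the BSA mice, by 0.67 ± 0.15 (adjusted p = 0.0187). It lost that call with the set term (adjusted p = 0.0733), within the high set (0.22), with the 2 groups alone (0.122), without scaling (0.307) and without BSA replicate 2 or 3 at 3 h or replicate 3 at 12 h (0.0531 to 0.076).

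Stat2 and Irf9, whose proteins belong to the complex that reads the response element, rose at 12 h and did not pass the threshold at 3 h. Stat2 levels at 3 h were 7.76, 7.67 and 7.57 in HBSS, 7.49, 7.41 and 7.55 in BSA and 7.99, 8.24, 7.35 and 8.00 in MACA. At 12 h they were 7.15, 7.31, 7.43 and 7.32 in HBSS, 7.51, 7.20, 7.61 and 7.06 in BSA and 8.34, 8.12 and 7.70 in MACA. The MACA arrays at 12 h lay above all control arrays of that time, but 1 MACA array at 3 h was the lowest of its time. Irf9 stood at 9.11, 8.86 and 8.61 (HBSS), 8.90, 8.83 and 8.65 (BSA) and 9.0, 9.28, 8.63 and 8.64 (MACA) at 3 h. Its 12 h levels were 8.58, 8.49, 8.65 and 8.28 in HBSS, 8.85, 8.72, 8.72 and 8.21 in BSA, and 9.33, 9.28 and 9.06 in MACA. Irf9 overlapped between agents at 3 h and separated at 12 h. The 2 low-set MACA arrays at 3 h, replicates 3 and 4, were also the lowest for Irf9 in that group. Log2 folds over HBSS at 12 h were 0.75 ± 0.18 for Stat2 (adjusted p = 0.00885) and 0.72 ± 0.17 for Irf9 (adjusted p = 0.00791). With the set term they were 0.52 (adjusted p = 0.162) and 0.31 (adjusted p = 0.294), so both calls were lost.

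**Figure D2:**
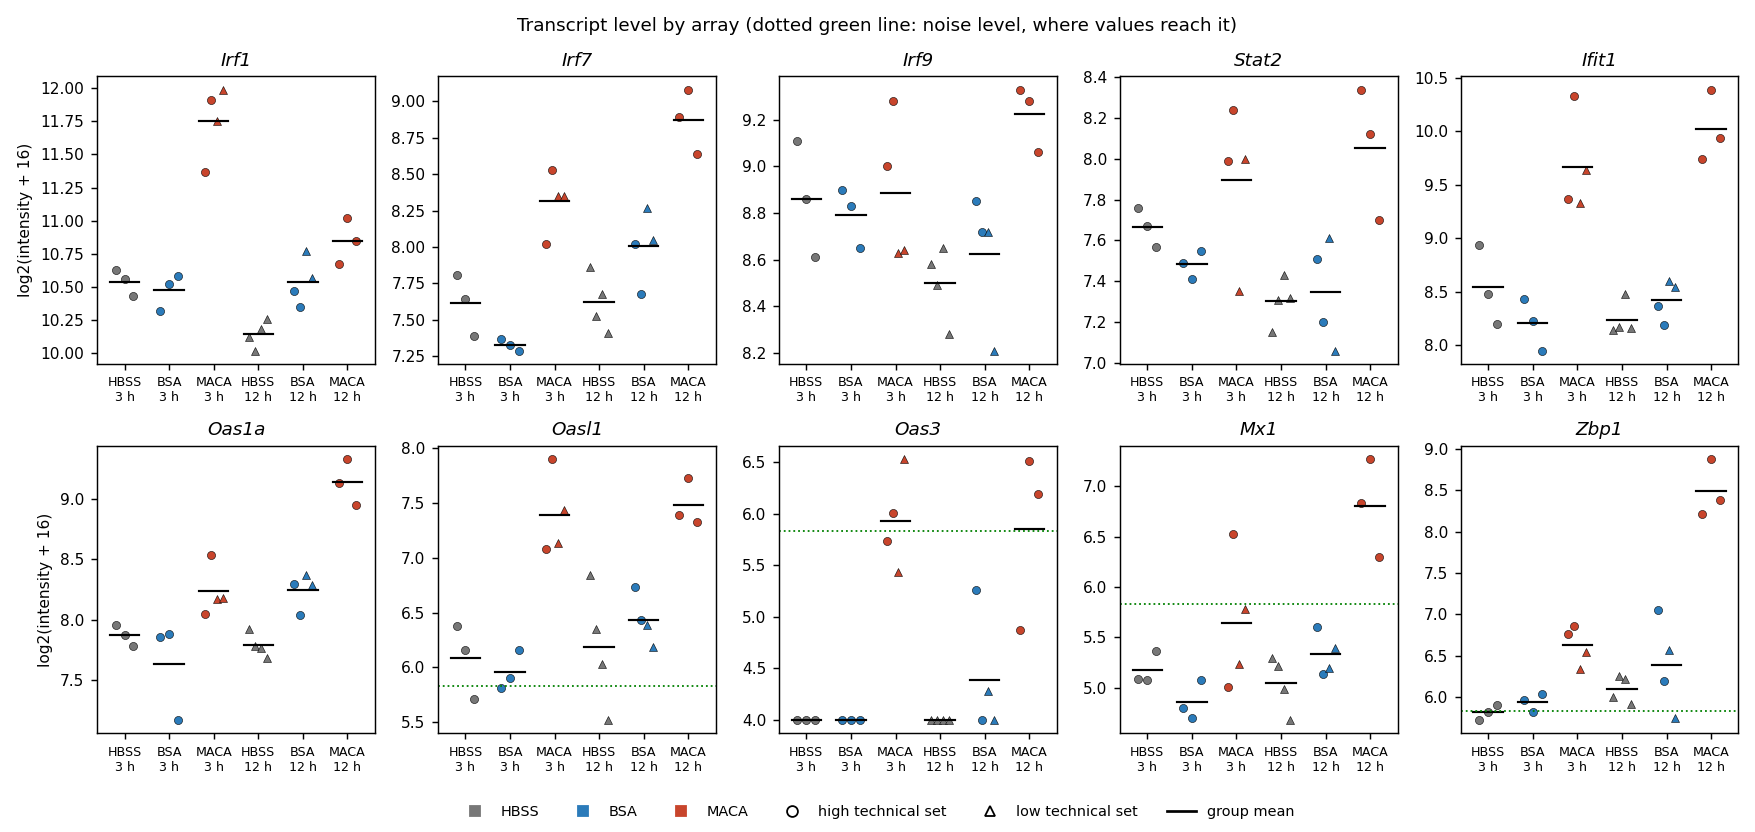
Level, log2(intensity + 16), of 10 antiviral genes on each of the 21 arrays; colour gives the agent, marker shape the technical set, the black bar the group mean and the dotted line the noise level. Irf1 is highest in MACA at 3 h (11.37 to 11.99), whereas Zbp1 and Oas1a are highest in MACA at 12 h (8.21 to 8.88 and 8.95 to 9.33).

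Among the IFIT, OAS and MX effectors 3 of 10 genes rose over HBSS at 3 h and 9 of 10 at 12 h, beside 4.83% and 10.1% of all genes, with median log2 folds of 0.57 and 1.21. Ifit1, which binds viral RNA that lacks host cap marks and blocks its translation, lies at chr19:34640889-34650009 beside Ifit2 and Ifit3. At 3 h Ifit1 was at 8.94, 8.48 and 8.20 in HBSS, 8.43, 8.23 and 7.95 in BSA and 9.37, 10.33, 9.33 and 9.64 in MACA. The 12 h levels were 8.14, 8.17, 8.48 and 8.16 in HBSS, 8.37, 8.19, 8.60 and 8.54 in BSA and 9.74, 10.39 and 9.94 in MACA. No MACA array overlapped a control array at either time. Ifit1 rose by 1.13 ± 0.23 at 3 h (2.18-fold, adjusted p = 0.00624) and by 1.79 ± 0.23 at 12 h (3.45-fold, adjusted p = 0.000116). It rose by 1.12 at 12 h without scaling and by 1.75 ± 0.32 with the set term. The 3 h call of Ifit1 was kept with the set term, but lost without scaling, within the high set and with the 2 groups alone. Its neighbours Ifit3 (1.10 ± 0.16) and Ifit2 (0.70 ± 0.17) passed the threshold at 12 h, with 0.24 and 0.22 at 3 h.

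The OAS enzymes make short linked adenylates that activate an RNA-degrading enzyme, while the OAS-like protein Oasl1 lacks that activity. Oas1a (chr5:120896256-120907544) stood at 7.96, 7.87 and 7.78 in HBSS, 7.86, 7.88 and 7.17 in BSA and 8.05, 8.54, 8.17 and 8.18 in MACA at 3 h. By 12 h the values were 7.92, 7.78, 7.77 and 7.68 in HBSS, 8.30, 8.04, 8.37 and 8.29 in BSA, and 9.13, 9.33 and 8.95 in MACA. MACA was above both controls at each time, and the BSA arrays at 12 h lay between HBSS and MACA. The log2 fold over HBSS was 0.37 ± 0.15 at 3 h (adjusted p = 0.159) and 1.35 ± 0.15 at 12 h (2.55-fold, adjusted p = 5.26e-05).

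Oasl1 represses translation of Irf7 messenger RNA in mice. Its levels at 3 h were 6.38, 6.16 and 5.71 in HBSS, 5.81, 5.90 and 6.16 in BSA and 7.08, 7.90, 7.13 and 7.44 in MACA. At 12 h HBSS had 6.84, 6.35, 6.03 and 5.52, BSA 6.73, 6.43, 6.39 and 6.19, and MACA 7.39, 7.73 and 7.33. MACA was above the controls on every array, and HBSS at 12 h was widely spread. The log2 fold over HBSS was 1.30 ± 0.26 at both times (adjusted p = 0.00573 and 0.00264), and 1.05 ± 0.35 at 12 h with the set term (adjusted p = 0.0557).

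Oas3 (chr5:120753098-120777684) was at the floor of 4.00 on all HBSS arrays of both times and on all BSA arrays at 3 h. MACA arrays read 5.74, 6.01, 5.44 and 6.53 at 3 h and 4.87, 6.51 and 6.19 at 12 h, and the BSA arrays at 12 h 5.26, 4.00, 4.28 and 4.00. Both MACA groups thus straddled the noise level, and 4 MACA arrays alone were above it. Oas3 rose at 3 h (adjusted p = 0.00241) and at 12 h (adjusted p = 0.00135), by at least 1.07-fold and at least 1.02-fold, since the control side is only bounded by noise. Oas2 did not pass (0.68 and 0.81, adjusted p = 0.159 and 0.0584), and Oasl2 rose at 12 h by 0.82 ± 0.15 after 0.28 at 3 h.

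Mx1, a GTPase that blocks influenza virus, is defective in most laboratory mouse strains, BALB/c among them, and the arrays report its transcript only. On the 3 h arrays it read 5.09, 5.08 and 5.37 in HBSS, 4.80, 4.70 and 5.08 in BSA and 5.01, 6.53, 5.24 and 5.78 in MACA, with 1 of these 10 above noise. On the 12 h arrays HBSS read 5.30, 5.22, 4.99 and 4.68, BSA 5.60, 5.14, 5.20 and 5.40, and MACA 6.83, 7.27 and 6.30. All 3 MACA arrays at 12 h were above noise and no control array was. Mx1 rose at least 1.96-fold over HBSS at 12 h (adjusted p = 0.000672), and Mx2 at least 1.49-fold (adjusted p = 0.0167). At 3 h Mx2 did not pass (adjusted p = 0.0756).

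Zbp1, a sensor of left-handed nucleic acid that can start inflammatory cell death, had the highest log2 fold of the set at 12 h. It lies at chr2:173206612-173218959. Its levels at 3 h were 5.72, 5.82 and 5.90 in HBSS, 5.96, 5.82 and 6.03 in BSA, and 6.76, 6.86, 6.34 and 6.55 in MACA. At 12 h they were 6.0, 6.25, 6.22 and 5.92 in HBSS, 7.05, 6.19, 6.57 and 5.75 in BSA, and 8.21, 8.88 and 8.39 in MACA. MACA separated from both controls at each time, narrowly at 3 h where the controls sat at noise. Over HBSS at 12 h the log2 fold was 2.39 ± 0.23 (5.26-fold, adjusted p = 1.62e-05), and 1.98 ± 0.28 with the set term. At 3 h, where the HBSS mean was under noise and the size is uncertain, Zbp1 passed (adjusted p = 0.0375), but not with a pseudocount of 64 (adjusted p = 0.059) or with probe-set means (0.0987). That call was also lost without scaling, within the high set and in at least 1 fit that left out 1 array. A second, dimmer Zbp1 probe set gave 0.47 and 1.59.

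Of the other RNA sensors and RNA-binding enzymes, the editing enzyme Adar rose at 12 h by 0.72 ± 0.16 from -0.00 at 3 h, and Ifih1, the sensor of long double-stranded RNA, by 0.40 ± 0.12 from 0.05. Dhx58 (0.88 at 12 h, adjusted p = 0.0824) and Eif2ak2, the kinase that halts translation (0.40, adjusted p = 0.173), did not pass. Among nucleotide and nucleic acid enzymes, Cmpk2 rose at 12 h by 0.94 ± 0.22 and Samhd1, which depletes the nucleotides viruses need, by 0.45 ± 0.13. The exonuclease Isg20 rose at both times (0.53 and 0.72). Rsad2, the neighbour of Cmpk2 on chromosome 12, had folds of 1.04 and 0.72 but an SE of 0.33 and did not pass (adjusted p = 0.0639 and 0.140). Its MACA arrays lay above its HBSS arrays at both times, at 9.96 to 10.49 against 8.78 to 9.79 at 3 h and 9.85 to 10.53 against 8.52 to 9.75 at 12 h. Dimmer Rsad2 probe sets, above noise on all 21 arrays, gave differences of 1.24 and 1.16 at 3 h and 0.79 and 0.97 at 12 h, with no test.

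The membrane factors Bst2, which tethers budding virus, and Ifitm1 rose at 12 h by 0.93 ± 0.15 and 0.98 ± 0.16. Bst2 arrays read 8.72, 8.42 and 8.62 in HBSS, 8.60, 8.29 and 8.08 in BSA and 8.35, 8.60, 8.81 and 8.39 in MACA at 3 h. At 12 h they read 8.59, 8.54, 8.52 and 8.63 in HBSS, 9.08, 8.54, 8.81 and 8.85 in BSA and 9.24, 9.82 and 9.45 in MACA. The agents were mixed at 3 h, and at 12 h MACA lay above both controls. Ifitm3, which blocks virus entry at endosomes, had -0.04 and 0.28 (adjusted p = 0.0523 at 12 h). Usp18, which removes ISG15 from proteins and damps the type I receptor, rose at 12 h by 0.65 ± 0.15, and Trim30a by 0.37 ± 0.12, while the ubiquitin ligase Trim25 had -0.17 and 0.22 and did not pass. The ADP-ribosyltransferases Parp14 and Parp9 rose at both times, Parp14 by 0.68 ± 0.12 and 0.47 ± 0.12 and Parp9 by 0.47 ± 0.11 and 0.46 ± 0.11. Rtp4, Lgals3bp and Sp100 rose at 12 h by 0.92, 0.73 and 0.53, and Ifi35 had 0.33 (adjusted p = 0.101). Of these and the enzymes above, Cmpk2, Ifih1, Isg20, Lgals3bp, Parp14 and Trim30a lost their 12 h call with the set term, as did Ifit2 and Oasl2. Of the 28 that rose, Ifih1, Parp14, Parp9, Samhd1, Sp100, Trim30a and Usp18 had log2 folds between -0.30 and -0.03 without scaling.

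The 11 genes with the response-element letters and the 15 with a window that lacked them were set side by side, with no test. At 12 h 8 of 11 and 13 of 15 rose, with medians of 0.75 and 0.72; at 3 h 2 of 11 and 4 of 15 rose, with medians of 0.25 and 0.20. Ifit1 and Oas3, whose windows are printed above, were the 2 at 3 h, while Irf1, with only the gamma-site letters, was among the 4.

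The difference between the 12 h and 3 h response to MACA over HBSS was tested directly. It passed for 5 of 35 genes, all larger at 12 h, beside 2.06% of all genes in that direction and 3.91% in either. These were Zbp1 (1.58 ± 0.32), Oas1a (0.99 ± 0.22), Bst2 (0.98 ± 0.22), Ifit3 (0.85 ± 0.22) and Sp100 (0.65 ± 0.11). With the set term Ifit3 alone passed, the replicate block lost Bst2 and Ifit3, and without MACA replicate 2 at 12 h the count was 1. It was 2 without HBSS replicate 1 at 3 h, 3 without HBSS replicate 3 at 3 h and 8 without MACA replicate 2 at 3 h. Without scaling between arrays 1 gene passed, and in the lower direction. For Sp100 the MACA level at 3 h (8.04) was under the HBSS level (8.16), and at 12 h the order was turned (8.47 against 7.93). Between 3 h and 12 h within the MACA mice 11 genes rose and Irf1 fell, beside 5.59% of all genes higher, 5.15% lower and 10.7% in either direction. The 11 were Zbp1, Mx1, Cmpk2, Bst2, Oas1a, Usp18, Irf7, Ifitm1, Ifitm3, Sp100 and Trim25, from 1.86 for Zbp1 to 0.30 for Trim25. Of these 12 calls 4 were kept within the high set and 5 with the 2 groups alone. Trim25 was lost with the set term, median scaling and probe-set means, Ifitm1 with the set term and the replicate block, and Irf7 with the block. In the HBSS mice none of the 35 passed limma's threshold between the times, beside 7.88% of all genes, and 5 had an unadjusted p under 0.05 (no share of all genes is given for that cut). All HBSS arrays at 3 h were in the high technical set and all at 12 h in the low set. Time and set thus cannot be told apart within these arrays, and the count was larger with the set term and without scaling, as given further on. In the BSA mice Irf7, Oas1a, Sp100, Trim25 and Usp18 rose (5 of 35, beside 3.36% of all genes higher and 5.29% in either direction), and none of the 5 passed in the high technical set alone, while Trim25 was the 1 kept with the set term.

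BSA, a protein given at the same dose, served as the second control. The MACA comparisons with BSA and with HBSS share the MACA arrays, so they are not independent of each other. Over BSA, 14 of 35 genes rose at 3 h, beside 3.49% of all genes higher and 5.91% changed in either direction. At 12 h 20 rose, beside 4.07% higher and 9.67% in either direction. None fell. Median log2 folds of the 35 were 0.45 and 0.67. At 3 h Ifit1 (1.47 ± 0.23), Oasl1 (1.43 ± 0.26) and Irf1 (1.29 ± 0.13) were among those that rose, and at 12 h Zbp1 (2.10 ± 0.23), Ifit1 (1.60 ± 0.23) and Cmpk2 (1.18 ± 0.22). Oas3 rose at both times (at least 1.07-fold and at least 1.02-fold) and Mx1 at 12 h (at least 1.96-fold), and these bounds have no place in that order. Groups did not overlap for 18 genes at 3 h (8.31% of all genes) and 24 at 12 h (7.75%).

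MACA and BSA at 12 h also have arrays in the same technical set, 3 against 2. There Ifit1 (1.75 ± 0.32), Zbp1 (1.87 ± 0.25), Irf7 (1.02 ± 0.19), Cmpk2, Ifit3, Adar and Ifitm3 passed, 7 genes in all, and 34 of the 35 log2 folds were above 0. The share of all genes called, or with a log2 fold above 0, is not given for these within-set fits. At 3 h, with 2 MACA arrays against 3 of BSA in that set, 4 genes passed, among them Ifit1 (1.65), Oasl1 (1.53) and Irf1 (1.17). Fitted on those 2 groups alone, with their own spread, 3 genes passed at 3 h and none at 12 h, where that fit called no gene of the whole array. Leaving out MACA replicate 2 gave 8 genes at 3 h and 11 at 12 h. At 3 h, leaving out BSA replicate 3 gave 8, and MACA replicate 3 or 4 gave 9. For MACA over HBSS at 3 h, 2 genes, Oasl1 and Irf1, passed within the high set, 4 with the 2 groups alone and 5 without HBSS replicate 3.

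Few of these genes passed the threshold for BSA over HBSS, which does not show that the others stayed unchanged. Averaged over the 35 genes, BSA arrays read 8.10 to 8.29 at 3 h against 8.27 to 8.42 in HBSS. At 12 h they read 8.38 to 8.61 against 8.22 to 8.38. Over HBSS none of the 35 passed limma's threshold at 3 h (1 at an unadjusted p under 0.05), beside 0.178% of all genes, and the median log2 fold was -0.16. In 6 of 35, Mx1, Cmpk2, Parp14, Irf7, Stat2 and Sp100, every BSA array lay below every HBSS array (9.15% of all genes). For Mx1 the nearest arrays both round to 5.08 and all 6 were under noise, so for Mx1 the groups cannot be told apart. At 12 h Samhd1 rose (0.51 ± 0.12, adjusted p = 0.0473), beside 0.557% of all genes higher and 1.35% in either direction. Its levels were 10.34, 10.19, 10.79 and 10.84 in BSA against 10.00, 10.03, 10.06 and 10.01 in HBSS, with MACA at 10.47, 10.50 and 10.47. BSA thus covered the MACA range, and without scaling the Samhd1 fold was -0.05. No antiviral gene passed with median scaling, with probe-set means, with the replicate block or on those groups fitted alone, nor when any of several single arrays was left out. Within the low technical set, 2 BSA arrays against 4 of HBSS, Samhd1 (0.79), Oas1a (0.54) and Trim25 (0.39) rose and Oasl2 fell by 0.38 on the log2 scale. Over all arrays another 8 genes had an unadjusted p under 0.05 at 12 h. For that cut no share of all genes is given, here or at 3 h. At 12 h 7 of 35 lay above HBSS with no overlap (4.37% of all genes).

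**Figure D3:**
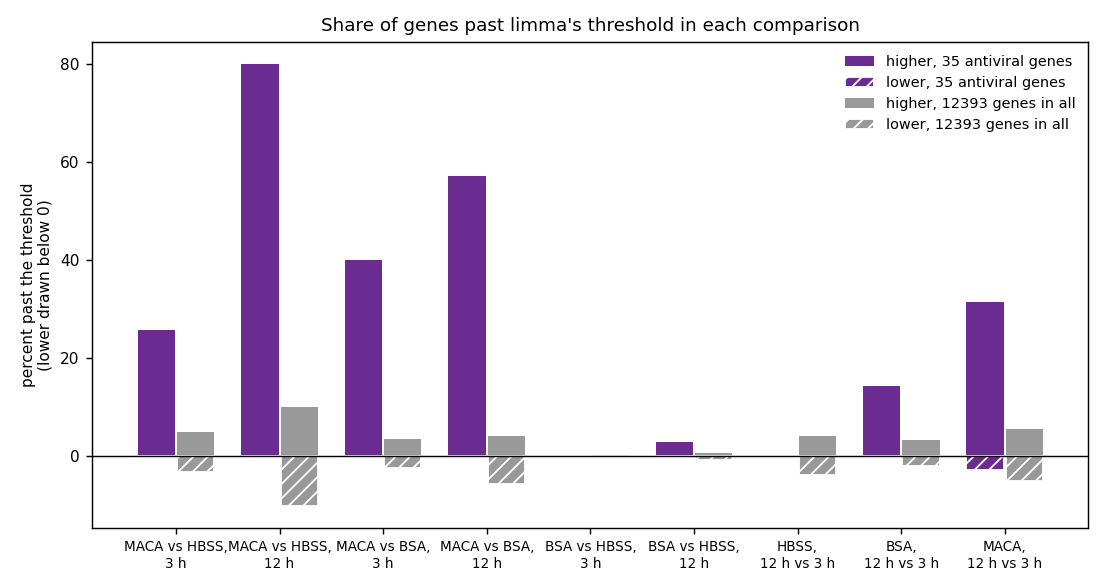
Percent of the 35 antiviral genes (purple) and of all 12393 genes (grey) past limma's threshold in each of 9 comparisons, higher above 0 and lower (hatched) below 0. The purple bars stand at 28 of 35 genes for MACA over HBSS at 12 h and 20 of 35 for MACA over BSA at 12 h, and at 0 to 1 gene for BSA over HBSS.

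Averaged over the 35 genes, each array had a mean log2 level of 8.63 to 9.09 in MACA at 3 h and 9.08 to 9.39 in MACA at 12 h. The HBSS arrays lay at 8.27 to 8.42 and 8.22 to 8.38, and the BSA arrays at 8.10 to 8.29 and 8.38 to 8.61. So every MACA array was above every control array, and the lowest was MACA replicate 1 at 3 h. MACA replicate 2 at 3 h had the highest level of its group for 26 of 35 genes, and MACA replicate 2 at 12 h for 28 of 35; the 2 are different mice. The median SD of the 35 genes was 0.25 in MACA at 3 h, against 0.20 over all genes, and 0.14 in HBSS at 3 h, where it was also 0.14 over all genes.

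**Figure D4:**
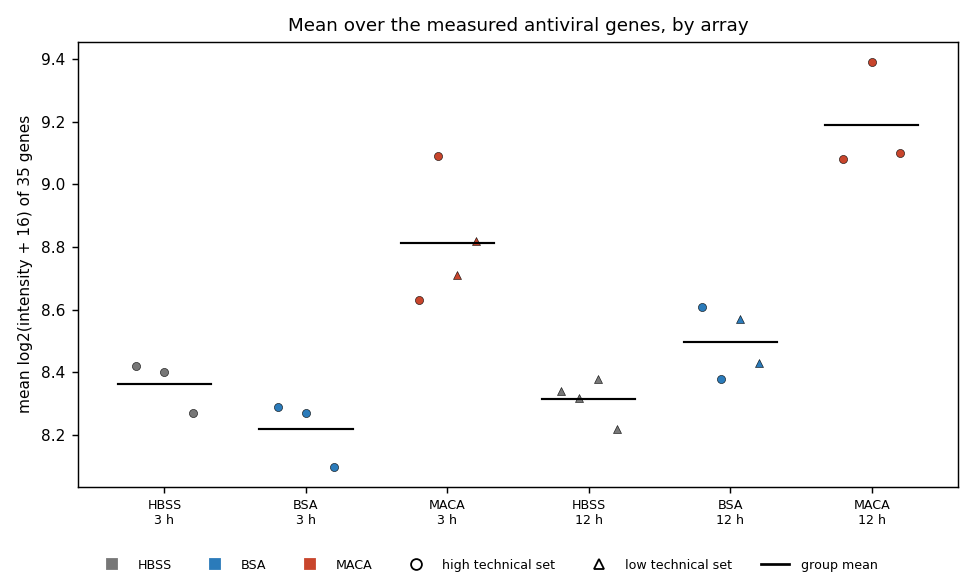
Mean log2(intensity + 16) of the 35 antiviral genes on each array, by agent and time; shape gives the technical set and the bar the group mean. The 7 MACA arrays lie between 8.63 and 9.39 and the 14 control arrays between 8.10 and 8.61.

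Transcripts of the interferons themselves were not seen to change. None of the 9 measured ligands passed the threshold at either time. Ifna1, Ifna4, Ifna5, Ifna9, Ifna11, Ifnb1, Ifnz and Ifng were under noise on every MACA and HBSS array at both times, so no difference in them could be measured. Ifnb1 read 4.60, 4.29, 4.10 and 4.10 in MACA and 4.76, 4.00 and 4.18 in HBSS at 3 h, and Ifng 4.82, 4.33, 4.00 and 4.75 against 4.00, 4.17 and 4.00. Ifna2 was at 6.29, 5.90 and 6.01 in HBSS at 3 h, just above noise, and at 4.08, 5.19, 4.58 and 4.94 in MACA (adjusted p = 0.112). Earlier times were not sampled.

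Of 5 measured interferon receptor chains, Ifngr2, the signalling chain of the gamma receptor, rose at 3 h and 12 h (0.80 ± 0.20 and 0.70 ± 0.20), and Ifnar2 of the type I receptor at 12 h (0.48 ± 0.11). With the set term Ifngr2 missed the threshold at 12 h (0.51, adjusted p = 0.222) and Ifnar2 kept its call (0.56, adjusted p = 0.0196). Of 7 measured Janus kinases and interferon regulatory factors outside the set, 3 rose at each time, beside 4.83% and 10.1% of all genes. Irf5, which acts below Toll-like receptors, rose by 0.91 ± 0.12 and 1.19 ± 0.12. Its MACA arrays read 7.75, 8.00, 7.96 and 8.15 at 3 h against 7.0, 7.06 and 7.11 in HBSS, with no overlap. Jak2 rose at both times (0.40 and 0.44), Irf8 at 3 h (0.56) and Jak1 at 12 h (0.46). With the set term the 12 h calls of Jak1 (adjusted p = 0.426) and Jak2 (adjusted p = 0.221) were lost, and that of Irf5 was kept (1.43 ± 0.14).

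Among 9 measured sensors and adaptors that lead to interferon production, Myd88, the adaptor of most Toll-like receptors, rose at both times (1.02 ± 0.13 and 1.12 ± 0.13), as did the kinase Ikbke, at least 2.35-fold at 3 h and by 1.17 ± 0.20 at 12 h. Ifi204 passed the test at 12 h with both groups under noise, and carries no fold. Of 8 feedback inhibitors, 4 rose at 3 h and 6 at 12 h, beside 4.83% and 10.1% of all genes. Socs3 rose by 1.69 ± 0.26 and 1.56 ± 0.26, Ptpn6 by 1.57 ± 0.26 at 12 h, and Socs1, which blocks Janus kinases, at 3 h and at least 2.02-fold at 12 h. Socs1 arrays read 6.19, 6.84, 6.75 and 6.90 in MACA and 6.05, 4.95 and 4.83 in HBSS at 3 h, and 6.80, 6.85 and 6.88 against 5.58, 5.76, 5.66 and 5.63 at 12 h. At both times every MACA array was above every HBSS array. With the set term Myd88, Ikbke, Socs1, Socs3 and Ptpn6 kept their 12 h calls, with 0.84 ± 0.24 for Socs3 and 1.10 ± 0.32 for Ptpn6, and 4 of the 6 inhibitors remained.

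GTPases induced mainly by interferon gamma, listed with the class II transactivator Ciita, rose in 7 of 9 cases at 3 h and 8 of 9 at 12 h, beside 4.83% and 10.1% of all genes, and their median log2 fold was 0.85 and 0.84, against 0.28 and 0.73 for the antiviral genes. Gbp3 rose by 1.40 ± 0.17 and 0.95 ± 0.17, Ifi47 by 1.29 ± 0.18 and 0.74 ± 0.18, and Iigp1 by 1.00 ± 0.24 and 1.19 ± 0.24. The interferon-inducible chemokines Cxcl9, Cxcl10 and Cxcl11 rose at both times. Cxcl10 read 9.47, 11.39, 10.08 and 10.70 in MACA at 3 h against 6.91, 6.20 and 5.66 in HBSS, and 8.27, 9.79 and 8.64 at 12 h against 5.03, 5.08, 5.52 and 5.19. MACA replicate 2 was the highest of its group at each time, as for most antiviral genes. Cxcl10 rose by 4.15 ± 0.42 at 3 h and at least 8.39-fold at 12 h. With the set term 6 of the 8 GTPase-list genes kept their 12 h call, Iigp1 (adjusted p = 0.0756) and Irgm1 being lost, as was Cxcl9 at 3 h (adjusted p = 0.105).

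**Figure D5:**
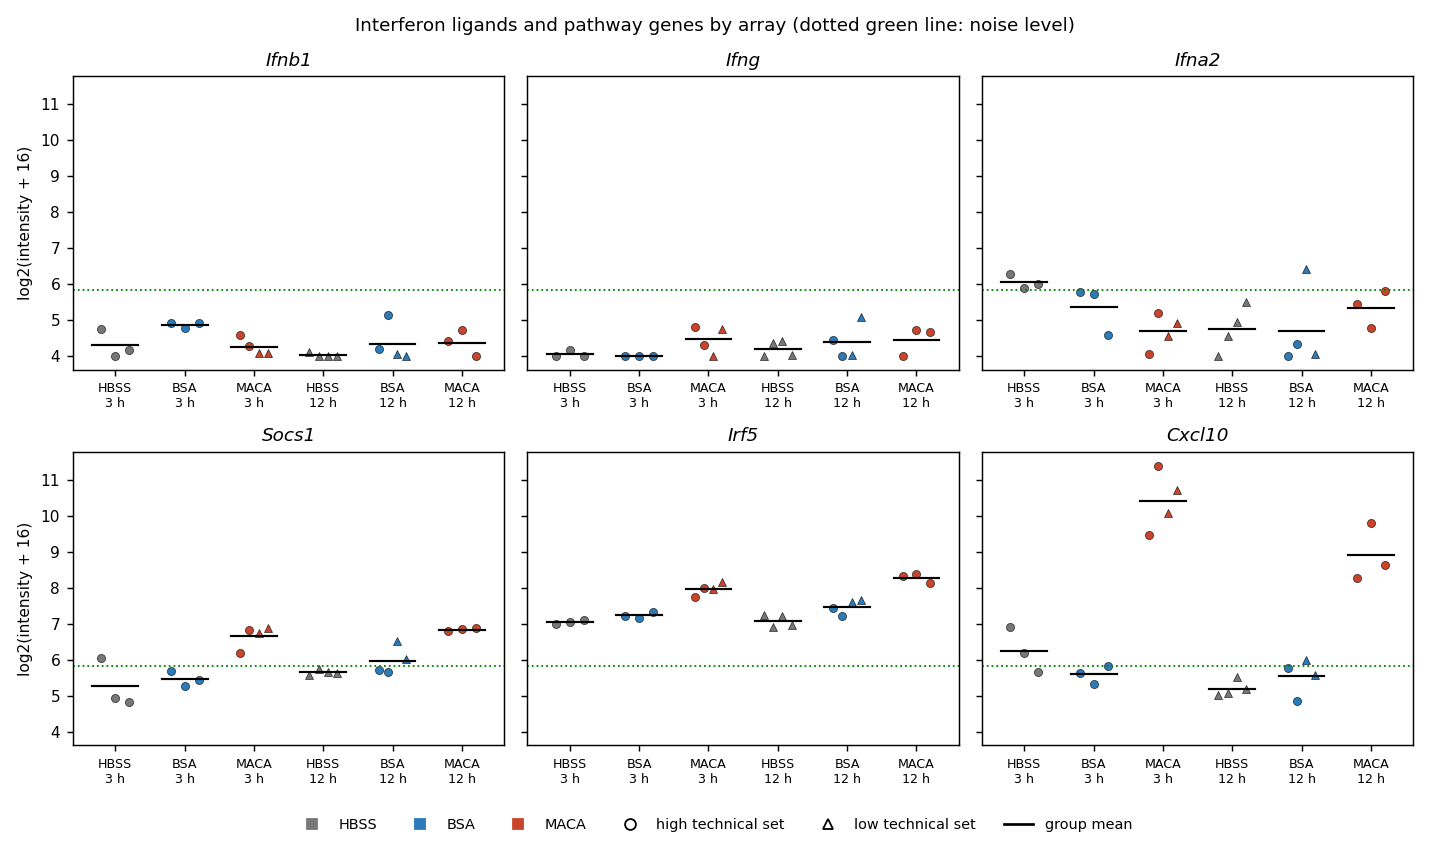
Level, log2(intensity + 16), of 3 interferon ligands, the feedback inhibitor Socs1, the factor Irf5 and the chemokine Cxcl10 on each array, with the noise level dotted at 5.83. Ifnb1 and Ifng lie under the noise level on all 21 arrays, while Cxcl10 reaches 9.47 to 11.39 in MACA at 3 h.

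Some leukocyte transcripts moved with MACA too, and their part in the antiviral result was not tested. Neutrophil markers (10 measured, S100a9 the brightest, Elane at 0 in MACA at 3 h and HBSS at 12 h) had summed intensities of 7660 to 11800 in MACA at 3 h against 1110 to 3520 in HBSS and 1550 to 4280 in BSA. At 12 h they stood at 4400 to 7880, against 1840 to 3100 and 3070 to 6980. Over HBSS 5 and 4 markers rose at the 2 times, beside 4.83% and 10.1% of all genes, or 5 and 0 with the set term. Of 10 macrophage and monocyte markers (Lyz2 the brightest) 2 rose at 3 h and 6 at 12 h (4 with the set term), beside the same shares of all genes. Their sums were 13200 to 15000 against 13800 to 14900 and 15800 to 16700 against 14700 to 15100. Plasmacytoid dendritic cells, a main source of type I interferon, had 6 measured markers, none of which rose, with log2 folds above 0 for 4 at 3 h and 3 at 12 h. Tcf4, the brightest, fell by 0.27 at 3 h and fell by 0.21 at 12 h on the log2 scale, and Cox6a2 fell by 0.68 at 12 h, calls that the set term ended. Ly6d, Klk1, Ccr9 and Pacsin1 were dim, and Ly6d had 0.43 at 12 h (adjusted p = 0.325). Klk1 and Pacsin1 were under noise on every MACA and HBSS array, and Ly6d and Ccr9 on every HBSS array. A fall or a small rise in these dim markers could thus not be measured. The list therefore cannot show whether plasmacytoid dendritic cells changed. The sums, which mostly reflect Tcf4, were 2660 to 3030 against 3090 to 3190 at 3 h and 2540 to 2840 against 2960 to 3430 at 12 h. T and NK cell markers (Gzma the brightest, Cd4 at 0 on every array of both groups at 3 h) summed to 1500 to 2220 against 932 to 1620 at 3 h and 1790 to 2930 against 898 to 1990 at 12 h, and B cell markers (Cd79b the brightest) to 679 to 955 against 408 to 534 and 843 to 1610 against 455 to 955. At 12 h 3 of 6 B cell markers rose (3 with the set term, 2 of them in both fits), beside 10.1% of all genes higher. Of 10 T and NK cell markers 1 rose at 12 h, Nkg7 (0 with the set term), which is near that share. Neither list had a call at 3 h. Lung epithelium (Scgb1a1 the brightest) summed to 65600 to 70700 against 68300 to 69500 and 67500 to 70900 against 60000 to 66500. At 12 h 3 of its 9 markers were higher (3 with the set term), beside 10.1% of all genes. Endothelium (Cldn5) had no marker called without the set term. Fibroblast and smooth muscle (Col3a1) had 2 of 7 lower at 12 h (0 with the set term), beside 20.2% of all genes changed in either direction. With the set term epithelial Cdh1 (-1.03, limma adjusted p = 0.0392) and endothelial Tek (-0.49, adjusted p = 0.0139) were lower at 12 h.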

How the data were processed

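Whole left lung RNA from 21 mice in 6 groups was measured on 21 arrays. The authors deposited linear intensities per probe set, with some values below 0; the software and scaling behind them are not stated in the labels or file headers. Array medians ran from 93 to 287 and limit precision with the 3 or 4 arrays a group. From the deposited values 64 control probe sets were removed, the arrays quantile-normalised, negative values raised to 0 and log2(intensity + 16) taken. Of 22626 probe sets, 20380 had 1 symbol, 691 several and 1555 none, and the brightest of a gene was kept. Limma 3.58.1 in R 4.3.3 fitted 6 group means with 15 residual degrees of freedom. Genes described in full were those with the highest called folds of MACA over HBSS, 6 at 12 h and 4 at 3 h, and the transcription factors; pathway lists gave up to 3 called genes and all ligands, and marker lists the brightest gene. Genes and lists were chosen with earlier results of these data known. The noise level is the magnitude that 95% of the negative normalised values stay under. A bound (at least N-fold) sets the brighter group's mean against the noise level where the dimmer group was under it on every array. The script was tested on simulated data. P-values measure spread between mice. Alternatives covered scaling, pseudocount, dim genes, probe sets, spread model, arrays fitted, technical set, replicate block and each array left out.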

Additional observations from a re-analysis of the deposited data

Results flagged for a closer look

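Among the groups of 4 arrays, 7 of 105 gene and group pairs had 1 array far from the other 3 by Dixon's test, which flags about 1 in 20 by chance. Ifit1 in HBSS replicate 3 at 12 h was high at 8.48 (others 8.14 to 8.17). In MACA replicate 2 at 3 h, Oasl2 (8.90, others 8.41 to 8.48) and Ifih1 (9.82, others 9.29 to 9.37) stood high. Dhx58 was low at 4.67 in MACA replicate 1 at 3 h (others 5.89 to 6.13). Rsad2 was low at 8.52 in HBSS replicate 4 at 12 h (others 9.58 to 9.75), and Cmpk2 at 7.62 in HBSS replicate 1 at 12 h (others 7.87 to 7.91). Rtp4 in BSA replicate 3 at 12 h was high at 10.30 (others 9.98 to 10.03).

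The response to MACA differed between 3 h and 12 h, by limma's test of the difference itself, for 6 genes. Over HBSS it was larger at 12 h for Ifit3 by 0.85 (limma adjusted p = 0.0432), Oas1a by 0.99 (0.0210), Zbp1 by 1.58 (0.0164), Bst2 by 0.98 (0.0210) and Sp100 by 0.65 (0.00848) on the log2 scale. Over BSA it was smaller at 12 h for Irf1, by -0.98 (adjusted p = 0.0362). With a term for the technical set Ifit3 alone kept its call, and with the replicate block Bst2, Ifit3 and Irf1 lost theirs.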

How the results depend on the processing

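Counts of the 35 antiviral genes past the threshold stayed within 1.5 times under the settings not named here. Without scaling the counts were, for MACA over HBSS, 2 at 3 h and 5 at 12 h; for MACA over BSA 2 and 2; for the time change 23 in HBSS, 0 in BSA and 1 in MACA; for the change of the HBSS ratio 1, lower, and of the BSA ratio 0. That setting moved the median of all genes by -0.57 in MACA over HBSS at 12 h, -0.45 in BSA over HBSS at 12 h and 0.72 in HBSS over time. It turned the sign, at 12 h over HBSS, of Ifih1 (-0.27), Usp18 (-0.03), Trim30a (-0.30), Samhd1 (-0.22), Parp9 (-0.21), Parp14 (-0.20) and Sp100 (-0.12), of Samhd1 in BSA over HBSS (-0.05) and of Sp100 in the change of the HBSS ratio (-0.13). Fitting the compared groups alone gave 4 for MACA over HBSS at 3 h, 3 and 0 for MACA over BSA, 0 for BSA over HBSS at 12 h, 1, 0 and 5 for the time changes in HBSS, BSA and MACA, and 0 for the change of the BSA ratio. The technical set term gave 18 for MACA over HBSS at 12 h, 4 for BSA over HBSS at 12 h, 3 and 1 for time in HBSS and BSA, and 1 and 0 for the changes of the HBSS and BSA ratios. Within the high set the counts were 2 for MACA over HBSS at 3 h, 4 and 7 for MACA over BSA, 0 and 4 for time in BSA and MACA, and 0 for the change of the BSA ratio; within the low set 4 for BSA over HBSS at 12 h. For BSA over HBSS at 12 h, median scaling and probe-set means gave 0, and a pseudocount of 64 and an intensity trend 2. The change of the BSA ratio gave 0 with median scaling and 2 with a pseudocount of 64 or without dim genes, and probe-set means gave 1 for time in HBSS. What set these counts apart was not tested.

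Leaving out 1 array at a time gave 5 to 11 and 20 to 30 for MACA over HBSS at 3 h and 12 h, 8 to 15 and 11 to 22 for MACA over BSA, 0 to 0 and 0 to 2 for BSA over HBSS. Time gave 0 to 1 in HBSS, 0 to 7 in BSA and 8 to 15 in MACA, and the changes of the HBSS and BSA ratios 1 to 8 and 0 to 3. The change of the HBSS ratio had 1 without MACA replicate 2 at 12 h, 8 without MACA replicate 2 at 3 h, and 2 and 3 without HBSS replicate 1 or 3 at 3 h. Time in BSA had 0 without BSA replicate 3 at 12 h and 1 without BSA replicate 3 at 3 h. Replicate numbers named different mice. Even so, 17 of 48 same-numbered pairs of arrays from different groups had deviations from the group mean correlated over 0.1. The median of those pairs was 0.0599 and the highest 0.371, against a median of -0.028 for arrays of other numbers in other groups. What lay behind this was not tested. With the replicate block, BSA over HBSS at 12 h gave 0, time in HBSS 1, the change of the HBSS ratio 3 and that of the BSA ratio 0, and the other counts stayed within 1.5 times. Dim signal limits Oas3, Mx1, Mx2 and every ligand to bounds or no fold.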
